A study of Homo sapiens with 9 samples.

Results

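The comparison described here is that of HK-2 cells that met PM2.5, the fine fraction of airborne particles, with control HK-2 cells, across all genes that were expressed well enough to be tested. HK-2 cells come from the epithelium of human proximal renal tubules and were immortalised for culture, and they were grown in keratinocyte serum-free medium with bovine pituitary extract and epidermal growth factor. Of the 9 RNA sequencing libraries of the series, 6 were compared: 3 from control cells, which the sample labels call untreated and the protocol describes as given vehicle, kept for 24 h with no particles, and 3 from cells exposed to PM2.5 for 24 h. The other 3 libraries, from cells given lactoferrin for 6 h and then PM2.5 for 18 h, entered only the estimate of the spread between replicates and are named below as lactoferrin replicates. The series text gives a PM2.5 dose of 1 mg/ml, a unit that could not be checked. Members were all genes with at least 0.5 FPKM (fragments scaled by transcript length and library size) in 3 or more of the 9 libraries, which were 14454 of 58884 gene identifiers. Nothing in the labels says that replicates were separate cultures, and the p-values here then measure only how far these samples spread, which may be technical spread.

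PM2.5 is a mixture of carbon particles, organic compounds such as polycyclic aromatic hydrocarbons, and metals. Cells meet such a mixture with several inducible programmes: the aryl hydrocarbon receptor switches on enzymes that oxidise aromatic compounds, the factor NRF2 switches on antioxidant and glutathione genes, metal-sensing pathways raise metallothioneins and ferritin, and the kinases of the integrated stress response raise the factor ATF4. Particles that are taken up are delivered to lysosomes, whose genes share the regulators TFEB, TFE3 and MITF. The proximal tubule is the segment of the nephron that reabsorbs most of the filtrate, and injury there is marked by changes in cell identity, adhesion, growth factor signalling and proliferation.

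The labelled cell type was first set against its markers. Of 35 proximal tubule markers, 22 stayed below the filter, among them the endocytic receptors LRP2 and CUBN, the water channel AQP1, the glucose and phosphate transporters SLC5A2 and SLC34A1 and the factor HNF4A. The kidney epithelial factor PAX8 (52.2 FPKM on average in control), the cadherin gene CDH6 (47.2) and the aminopeptidase gene ENPEP (37.8) were expressed. Immune markers were below the filter for 15 of 17 genes, endothelial and fibroblast markers for 14 of 17, and distal tubule and collecting duct markers for 16 of 17.

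Gene-assigned reads or fragments numbered 15313633 to 18620178 over the 6 libraries, as rebuilt from the deposited FPKM, and mitochondrial genes took 6.35% to 9.33% of them. In a principal component analysis of the 9 libraries, component 1 held 54.4% of the variance and placed the controls at -41.2, -42.2 and -50.7 and the PM2.5 libraries at 26.2, 16.4 and 18.1. Control replicate 3 stood apart on the third component (8.86% of the variance). Across 14436 genes with a sequence, the difference of control replicate 3 from the other controls had a Spearman correlation of 0.254 with transcript length and -0.265 with GC content. The difference of PM2.5 replicate 1 from the other PM2.5 libraries had correlations of -0.244 and 0.429, and the change with PM2.5 itself -0.053 and 0.182. These are descriptions across genes of the same libraries.

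In PM2.5-exposed cells 2670 genes were higher and 2392 were lower than in control at an adjusted p under 0.05, that is 18.5% and 16.5% of the genes tested, and 35.0% in either direction. These were calls of limma, with Benjamini-Hochberg adjustment over all 14454 genes, on log2(FPKM + 0.5). In what follows a gene rose or fell only where it passed that test, and a log2 change is the difference of group means on that scale with its standard error, on which the fold of genes near 0 FPKM appears smaller. Most calls were modest. The median size of a called log2 change was 0.61. At least 2-fold changes numbered 461 upward and 525 downward, and at least 4-fold changes 53 and 50. The median log2 change of all genes was 0.00, the value beside which each gene group below is to be read. In these bulk RNA samples, fewer cells of a kind and less RNA per cell cannot be told apart.

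**Figure D1:**
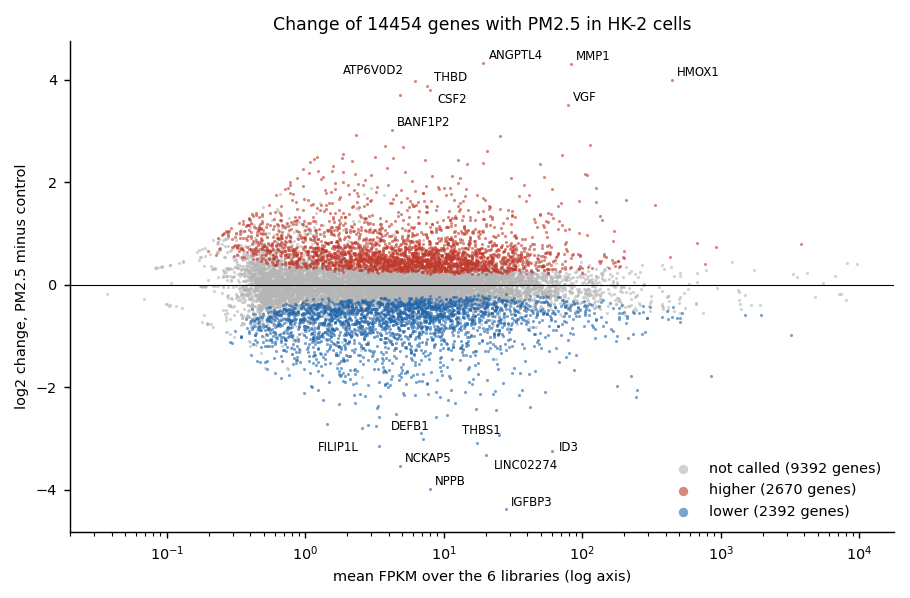
Each point is 1 of the tested genes, with its mean FPKM over the 6 control and PM2.5 libraries on a log x axis and the log2 change of PM2.5 against control on the y axis. Red points are the 2670 genes called higher, blue the 2392 called lower and grey the 9392 not called, and most coloured points lie within 2 log2 units of 0.

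The share of genes called depended on their level. Below 1 FPKM 22.0% of 2858 genes were called, from 1 to 10 FPKM 38% of 7504, from 10 to 100 FPKM 39.1% of 3756, and above 100 FPKM 33.6% of 336. Above 100 FPKM decreases (73) outnumbered increases (40). Of the tested genes, 544 had no control library at 0.5 FPKM and 369 had no PM2.5 library there, so the filter itself leaned on 1 direction for them; 256 of the former rose and 189 of the latter fell. Calls also differed by the GC content of the longest transcript. With the genes in 5 equal bins by GC, in the lowest bin (23.1% to 40.8%) 10% rose and 24.5% fell, with a median log2 change of -0.14, and in the highest bin (57.6% to 83.9%) 24.5% rose and 12.7% fell, with a median of 0.09. The part of GC content in the calls was not tested.

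**Figure D2:**
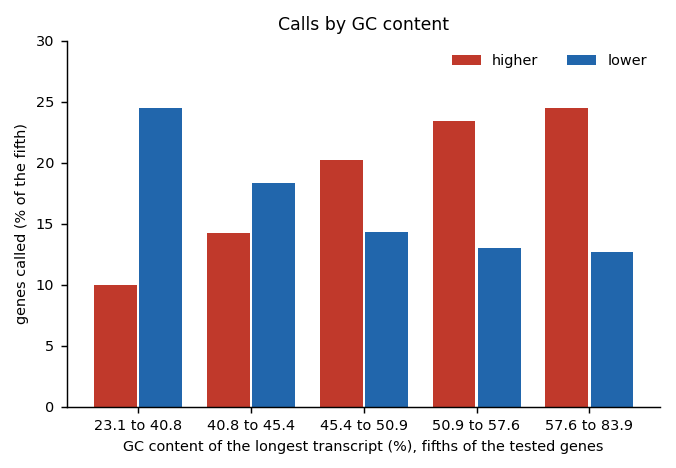
Bars give the percentage of genes called higher and lower with PM2.5 in each of 5 equal bins of the tested genes ordered by the GC content of their longest transcript. The share of increases climbs from 10% in the bin of lowest GC to 24.5% in the highest, and the share of decreases goes from 24.5% to 12.7%.

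The 12 genes with the largest increases included those for a haem-degrading enzyme, secreted proteins and transporters. HMOX1, which encodes haem oxygenase 1 (GRCh38 chromosome 22, 35380361 to 35394214, plus strand), was at 55.6, 50.5 and 43.0 FPKM in the 3 controls and at 916, 770 and 810 FPKM with PM2.5. ANGPTL4, an inhibitor of lipoprotein lipase (chromosome 19, 8363289 to 8374373, plus strand), was at 1.35, 1.2 and 1.41 FPKM in control and at 41.2, 33.5 and 36.8 FPKM with PM2.5. MMP1, interstitial collagenase (chromosome 11, 102789920 to 102798160, minus strand), was at 7.36, 6.5 and 7.71 against 171, 151 and 151 FPKM. For these 3 genes every exposed library lay far above every control, with log2 changes of 4.00 ± 0.12 (adjusted p = 1.9e-07), 4.33 ± 0.12 (1.3e-07) and 4.31 ± 0.10 (4.6e-08).

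THBD, the gene of the anticoagulant receptor thrombomodulin, went from 0.493, 0.353 and 0.586 FPKM to 19.9, 11.6 and 12.3 FPKM (log2 change 3.88 ± 0.22). CSF2, which encodes the myeloid growth factor GM-CSF, went from 0.414, 0.690 and 0.728 FPKM to 16.5, 12.9 and 16.3 FPKM (3.79 ± 0.14). The neuropeptide precursor gene VGF went from 10.1, 12.4 and 12.8 FPKM to 165, 137 and 132 FPKM (3.52 ± 0.19). All 3 went from low or moderate to much higher levels with no overlap. The rest of the 12 largest were the proton pump subunit gene ATP6V0D2 (3.98 ± 0.14), the monocarboxylate transporter family gene SLC16A6 (2.92 ± 0.12), the organic anion transporter gene SLCO4A1 (2.91 ± 0.15), the lipolysis inhibitor gene G0S2 (2.73 ± 0.18), TM4SF19 (2.71 ± 0.12) and BANF1P2 (3.02 ± 0.22), a pseudogene whose reads can be shared with its parent BANF1. MMP3, which encodes stromelysin 1 and lies beside MMP1 on chromosome 11, was listed at 0 in all 3 controls and at 2.49, 2.19 and 1.78 FPKM with PM2.5.

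The 12 largest decreases included those of genes for secreted proteins and for an inhibitor of transcription factors. IGFBP3, the main carrier of insulin-like growth factors in blood (chromosome 7, 45912245 to 45921874, minus strand), fell from 55.3, 55.1 and 51.2 FPKM to 2.33, 2.24 and 2.0 FPKM, a log2 change of -4.39 ± 0.08 (adjusted p = 1.3e-08). NPPB, the B-type natriuretic peptide gene, fell from 16.6, 14.6 and 14.7 FPKM to 0.455, 0.315 and 0.882 FPKM (-3.99 ± 0.17). ID3, an inhibitor of helix-loop-helix factors, fell from 136, 112 and 80.4 FPKM to 11.3, 12 and 10.5 FPKM (-3.25 ± 0.17). For these 3 genes every exposed library lay far below the lowest control.

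Thrombospondin 1, a matrix protein that activates latent TGF-beta, had its gene THBS1 lower in every exposed library (28.3, 30.2 and 35.2 FPKM in control, 2.64, 3.61 and 3.94 FPKM with PM2.5; -3.09 ± 0.19). The genes of endothelin 1, EDN1 (-2.76 ± 0.15), of a receptor of fibroblast growth factors, FGFR2 (-2.74 ± 0.12), and of a carrier of retinoic acid, CRABP2 (-2.93 ± 0.13), fell too. DEFB1, the epithelial antimicrobial peptide beta-defensin 1, varied within the controls (19.3, 12.4 and 7.49 FPKM) and was between 0.909 and 1.34 FPKM with PM2.5 (-3.01 ± 0.44, adjusted p = 0.00086). NCKAP5 (-3.54 ± 0.16), the noncoding RNA gene LINC02274 (-3.33 ± 0.31), FILIP1L (-3.15 ± 0.28) and ZBED2 (-2.79 ± 0.18) completed the 12. Another noncoding RNA gene, LINC00410, was at 2.82, 2.60 and 3.12 FPKM in control and listed at 0, 0 and 0.0563 FPKM with PM2.5. All of the 24 largest changes kept their call when any single library was left out and under every other setting tried.

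**Figure D3:**
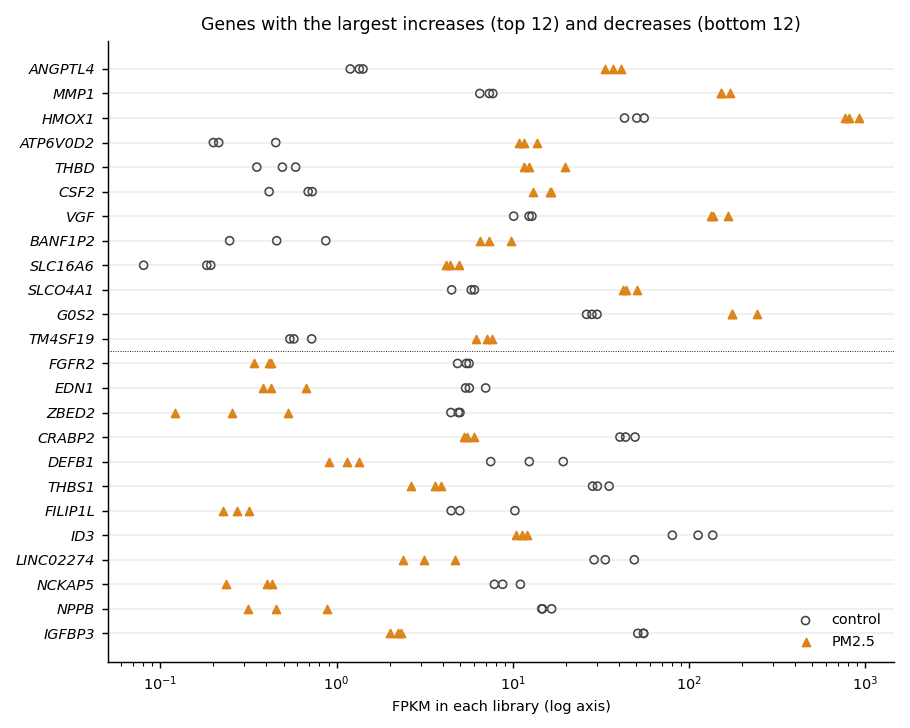
Points are the FPKM of each control and PM2.5 library on a log axis for the 12 genes with the largest increases and the 12 with the largest decreases. The groups do not overlap for any of the 24 genes, as the rule that chose them required.

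The gene groups below were described by the number of tested members that rose and fell and by their median log2 change. The lists were chosen with earlier results of these data known, so their counts are descriptions and not independent support for a shift of a group. The background was 18.5% of genes higher and 16.5% lower.

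**Figure D4:**
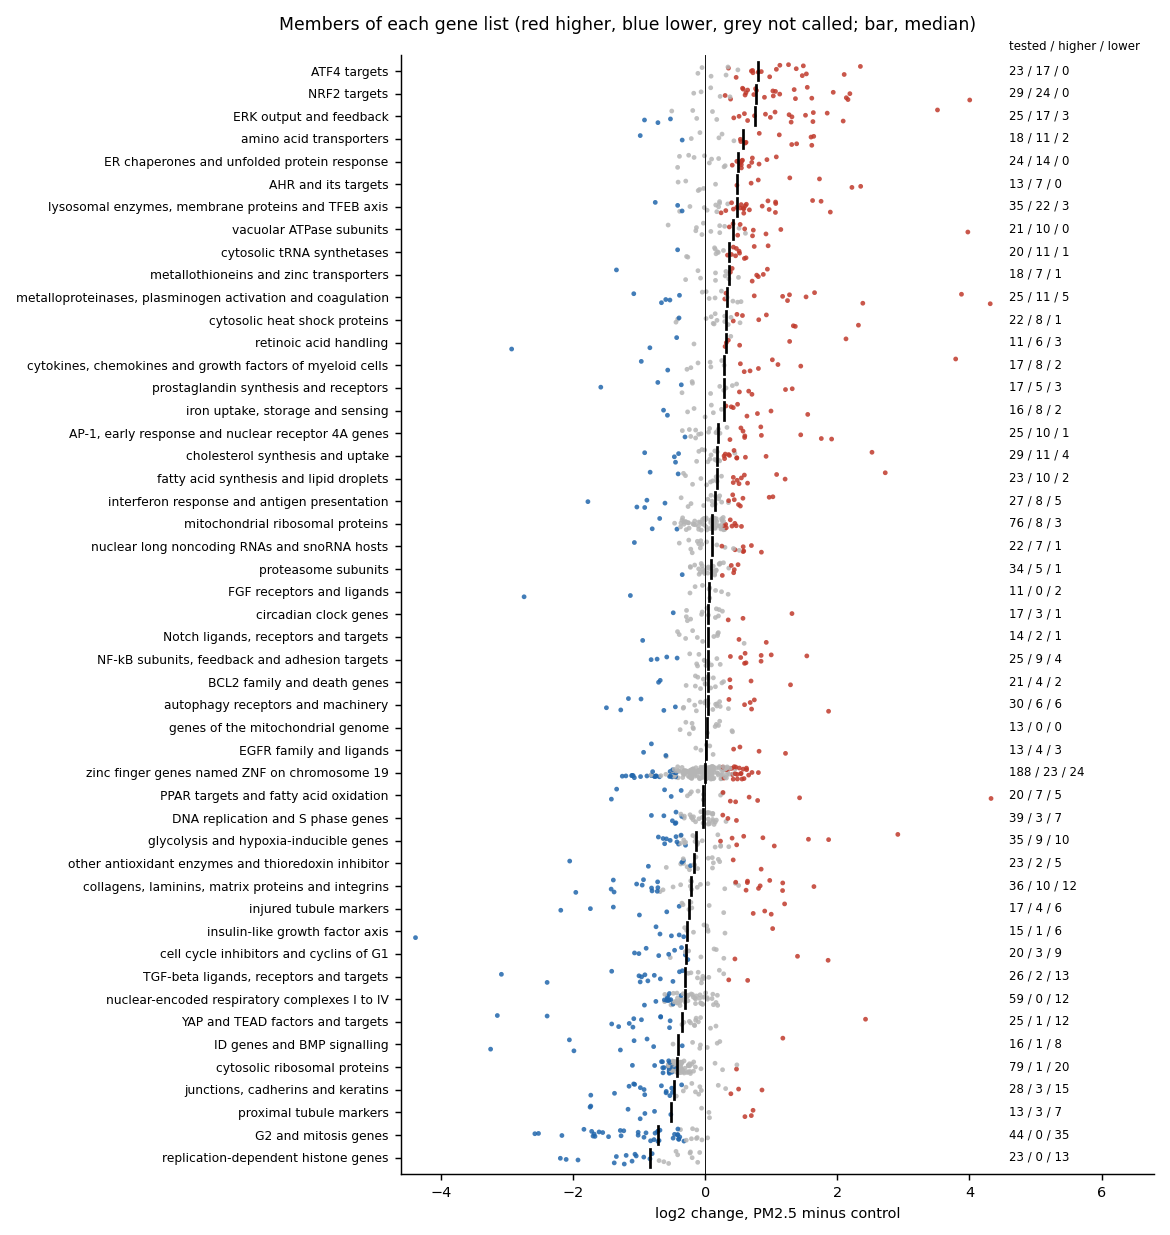
Each row is 1 gene group with at least 10 tested members, small points are the log2 changes of its members with PM2.5, the black bar is their median and the numbers at the right count members tested, higher and lower. ATF4 targets (median 0.80) and NRF2 targets (0.78) lie to the right of 0, and histone genes (-0.84) and G2 and mitosis genes (-0.72) to the left.

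Enzymes of foreign compound metabolism rose. Of 13 tested genes of the aryl hydrocarbon receptor and its targets, 7 rose and 0 fell, with a median log2 change of 0.48. CYP1A1, the cytochrome P450 that oxidises polycyclic aromatic compounds, was at 0.117, 0.126 and 0.0853 FPKM in control and at 2.48, 2.5 and 2.16 FPKM with PM2.5 (2.22 ± 0.10, adjusted p = 1.2e-06). CYP1B1, a related P450, went from 4.06, 4.04 and 4.78 FPKM to 21.0, 26.6 and 27.1 FPKM (2.35 ± 0.14). Both were higher in all 3 exposed libraries without overlap, CYP1A1 from a level near 0. CYP1A1 thus passed the filter only through libraries that met PM2.5 and is still counted among the 7. The microsomal glutathione transferase gene MGST1 (1.73 ± 0.11), the P450 reductase gene POR (1.28 ± 0.11) and the receptor's feedback target TIPARP (0.48 ± 0.11) rose too. The receptor gene AHR itself was at 2.97 to 4.57 FPKM in control and 3.14 to 3.84 FPKM with PM2.5 and did not pass the test (-0.11 ± 0.14, adjusted p = 0.58), and its repressor AHRR, also a target, was below the filter. The core of the receptor's binding motif, GCGTG on either strand, occurred in 4 of 10 of these genes' promoters in RefSeq, against 51.3% of the promoters of all tested genes.

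NRF2 targets rose as a group: 24 of 29 rose, 0 fell, and the median was 0.78. The members cover glutathione synthesis, quinone reduction, the thioredoxin system and the supply of NADPH. NQO1, the quinone reductase gene, was at 44.2, 35.9 and 30.5 FPKM in control and at 183, 167 and 163 FPKM with PM2.5 (2.16 ± 0.14, adjusted p = 8.7e-06). TXNRD1, thioredoxin reductase 1, went from 35.4, 37.4 and 43.0 FPKM to 187, 173 and 172 FPKM (2.14 ± 0.11). The exposed libraries were about level with each other and well above the controls for both. GCLM, the modifier subunit of the first enzyme of glutathione synthesis, rose by 1.37 ± 0.07, and its catalytic partner GCLC by 0.38, a call lost without control replicate 1 or 2 or any PM2.5 replicate (adjusted p up to 0.0804). The cystine importer gene SLC7A11 rose by 1.61 ± 0.19. ME1, which makes NADPH, rose by 1.13 and TALDO1, an enzyme of the pentose phosphate pathway, by 0.60 ± 0.13, and the drug exporter gene ABCC3 (1.94) and OSGIN1 (2.19 ± 0.12) also rose. SRXN1, sulfiredoxin, rose by 0.90 ± 0.23, a call lost without PM2.5 replicate 1 (adjusted p = 0.0533). The most abundant members that did not pass were AKR1B1 (-0.06) and PRDX1 (0.23).

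Antioxidant genes outside that list moved in both directions. Of 23 such genes 2 rose and 5 fell (median -0.17). The decreases numbered 2 or 3 without control replicate 1 or 2 or any PM2.5 replicate and 8 without control replicate 3 or lactoferrin replicate 3, and 1 gene rose without control replicate 2 or 3, any PM2.5 replicate or lactoferrin replicate 2. TXNIP, the inhibitor of thioredoxin, fell from 60.9, 62.7 and 52.5 FPKM to 14.7, 14.2 and 13.8 FPKM (-2.05 ± 0.08, adjusted p = 5.9e-07), a drop in every exposed library. GPX4, the peroxidase that reduces lipid peroxides, fell by 0.86 on the log2 scale, and the mitochondrial superoxide dismutase gene SOD2 rose by 0.85. SOD1 (-0.24), CAT (0.11) and the peroxiredoxin gene PRDX6 (0.12) did not pass.

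Genes of metal handling rose in part. Of 18 metallothionein and zinc transporter genes 7 rose and 1 fell (median 0.36). MT2A, the most abundant metallothionein, was at 606, 466 and 380 FPKM in control and at 1048, 788 and 771 FPKM with PM2.5 (0.80 ± 0.22, adjusted p = 0.018), a call lost without control replicate 2 or 3 or PM2.5 replicate 1, with an adjusted p of up to 0.0693, and with no filter on low values (0.0559). Metallothionein genes are near-identical copies, and the division of reads among them is not certain. The zinc exporter gene SLC30A1 rose by 0.78 ± 0.14 and the zinc importer gene SLC39A14 by 0.94. The importer gene SLC39A10 fell from 33.6, 37.6 and 39.8 FPKM to 12, 16.5 and 16.2 FPKM (-1.34 ± 0.17).

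Of 16 genes of iron uptake, storage and sensing, 8 rose and 2 fell (median 0.28). The ferritin heavy chain gene FTH1 was at 219, 179 and 109 FPKM in control and at 591, 440 and 463 FPKM with PM2.5 (1.55 ± 0.24, adjusted p = 0.0014). The light chain gene FTL was at 3436, 2805 and 1978 FPKM against 5482, 4468 and 4483 FPKM (0.79 ± 0.23, adjusted p = 0.024), a call lost without control replicate 2 or 3 or PM2.5 replicate 1 or 2 (adjusted p up to 0.0841) and with no filter on low values (0.0621). Both were lowest in control replicate 3 and highest in PM2.5 replicate 1, and both have processed pseudogenes that can share reads. The endosomal ferrireductase gene STEAP3 rose (1.00 ± 0.11) and the ferritinophagy receptor gene NCOA4 fell (-0.63 ± 0.08). The transferrin receptor gene TFRC was at 47.4 to 50.9 FPKM in control and 50.1 to 52.3 FPKM with PM2.5 and did not pass (0.00 ± 0.16).

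ATF4 targets formed the group with the highest median: 17 of 23 rose, 0 fell, and the median was 0.80. GDF15, a stress-induced cytokine of the TGF-beta family, was at 15.2, 14.4 and 15.8 FPKM in control and at 103, 70.2 and 76.3 FPKM with PM2.5 (2.35 ± 0.15, adjusted p = 6.6e-06). TRIB3, a pseudokinase that binds ATF4, went from 21.1, 21.7 and 14.5 FPKM to 97.9, 76.8 and 82.9 FPKM (2.1 ± 0.14). DDIT3, the factor CHOP, went from 13.7, 14 and 11.4 FPKM to 38, 38.4 and 38.1 FPKM (1.47 ± 0.12). PM2.5 replicate 1 was the highest library for GDF15 and TRIB3 and level with the others for DDIT3. The serine synthesis genes PHGDH (0.80 ± 0.11), PSAT1 (0.72 ± 0.11) and PSPH (0.85), the glutathione-degrading CHAC1 (1.53 ± 0.22) and the phosphatase subunit PPP1R15A (1.13 ± 0.12), which reverses the translational arrest of the stress response, rose. ATF4 itself rose by 0.47 ± 0.12 (adjusted p = 0.014), a call lost without PM2.5 replicate 1 (0.0572). SESN2 (-0.11) and DDIT4 (0.32) did not pass. The asparagine synthetase gene ASNS shares 44.6% of its exon bases with another gene and was listed at 0.0117 to 0.197 FPKM, below the filter.

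Genes that load and import amino acids rose with them. Of 20 cytosolic tRNA synthetases 11 rose and 1 fell (median 0.37), led by YARS for tyrosine (14.9, 14.8 and 15.0 FPKM in control against 32.0, 28.3 and 31.0 FPKM; 0.95 ± 0.09) and WARS for tryptophan (0.74), while QARS for glutamine fell (-0.42). There were 2 lower without lactoferrin replicate 1. Of 18 amino acid transporters 11 rose and 2 fell (1 without control replicate 2 or 3 or PM2.5 replicate 1 or 2), with a median of 0.57. SLC7A5 and SLC3A2, the 2 chains of the large neutral amino acid exchanger, rose by 1.38 ± 0.16 and 1.31 ± 0.10, the glycine transporter gene SLC6A9 by 1.6 ± 0.13 and SLC6A15 by 1.64 ± 0.12. The glutamate transporter gene SLC1A3 fell (-0.98 ± 0.17). A composite element bound by C/EBP and ATF factors, TGATGNAA on either strand, was in 6 of 16 promoters of tRNA synthetases (37.5%), against 1.64% of all tested promoters. In the promoters of the ATF4 targets above it was less frequent, in 2 of 19 (10.5%). These matches are a description of letters in RefSeq sequence.

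Chaperones of the endoplasmic reticulum also rose. Of 24 genes of that group 14 rose and 0 fell (median 0.50), but 9 rose without control replicate 1 or 2 or PM2.5 replicate 2 or 3. HERPUD1, a part of the degradation machinery of the reticulum, was at 10.9, 10.5 and 9.33 FPKM in control and at 19.2, 21.5 and 21.4 FPKM with PM2.5 (0.93 ± 0.08, adjusted p = 5.0e-05). The stress sensor gene ERN1 (1.08) and the co-chaperone gene DNAJB9 (0.81 ± 0.11) rose, and the sensors EIF2AK3 (-0.39 ± 0.16, adjusted p = 0.089) and ATF6 (-0.17) did not pass. HSPA5, the chaperone BiP, was at 306, 325 and 388 FPKM against 457, 541 and 543 FPKM (0.55 ± 0.16, adjusted p = 0.027), with the call lost without any 1 of control replicates 1 and 2 and PM2.5 replicates 2 and 3 (up to 0.0861).

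Among 22 cytosolic heat shock genes 8 rose and 1 fell (median 0.32), and 13 rose without control replicate 3. The decrease was lost without any control or PM2.5 replicate or lactoferrin replicate 2. HSPA6, an inducible member of the HSP70 family, went from 0.250, 0.154 and 0.170 FPKM to 3.03, 2.84 and 3.13 FPKM (2.32 ± 0.09, adjusted p = 5.9e-07). It passed the filter only through libraries that met PM2.5 and is still counted among the 8. HSPA1A was at 23.7, 25 and 32.1 FPKM in control and at 79.3, 69.0 and 68.1 FPKM with PM2.5 (1.36 ± 0.14) and HSPA1B rose by 1.33; these are near-identical copies. The constitutive members HSPA8 (0.35 ± 0.13, adjusted p = 0.061), HSP90AA1 (-0.44) and HSP90AB1 (0.30) did not pass. A heat shock element of the form GAANNTTC, which reads the same on both strands, was in 8 of 19 of these promoters (42.1%), against 4.64% of all.

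Lysosomal genes rose across enzymes, membrane proteins and the proton pump. Because several of them carry the palindrome TCACGTGA, a form of the element that TFEB and TFE3 bind, 4 promoters are shown as the 100 bases before the RefSeq start on GRCh38.p14, with that motif in capitals. They belong to GAA (acid alpha-glucosidase, chr17:80101481-80101580, plus strand), MCOLN1 (a lysosomal calcium channel, chr19:7522524-7522623, plus), CTSA (cathepsin A, chr20:45891235-45891334, plus) and LAMP1 (a lysosomal membrane glycoprotein, chr13:113297139-113297238, plus).
GAA: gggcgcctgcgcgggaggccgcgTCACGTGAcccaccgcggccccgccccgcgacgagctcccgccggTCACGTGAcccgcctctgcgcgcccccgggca
MCOLN1: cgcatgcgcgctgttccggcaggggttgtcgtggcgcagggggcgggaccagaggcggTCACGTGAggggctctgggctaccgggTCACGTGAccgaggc
CTSA: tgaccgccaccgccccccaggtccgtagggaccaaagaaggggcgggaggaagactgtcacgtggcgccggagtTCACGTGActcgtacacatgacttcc
LAMP1: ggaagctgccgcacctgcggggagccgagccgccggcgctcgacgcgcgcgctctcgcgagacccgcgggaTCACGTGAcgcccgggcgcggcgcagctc
The palindrome, which is its own reverse complement, was in 4 of 25 promoters of the lysosomal group (16%) and 2 of 15 of proton pump subunits (13.3%), against 2.01% of all tested promoters, read over 250 bases before to 50 after the start. Its first base lay 77 and 32 bases before the start in GAA, 42 and 15 in MCOLN1, 26 in CTSA and 29 in LAMP1.

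Of 35 lysosomal and TFEB-related genes 22 rose and 3 fell (median 0.48). CTSL, the protease cathepsin L, was at 48.4, 47.4 and 57.5 FPKM in control and at 219, 188 and 187 FPKM with PM2.5 (1.89 ± 0.12, adjusted p = 8.2e-06). Of the genes that link lysosomes to the nutrient sensor mTORC1, RRAGD rose from 2.70, 2.44 and 2.29 FPKM to 9.03, 8.96 and 8.90 FPKM (1.63 ± 0.07), RRAGC by 0.95 ± 0.08, FLCN by 1.07 ± 0.11 and FNIP2 by 1.75 ± 0.15, while FNIP1 (0.22 ± 0.16) and the lysosomal amino acid sensor gene SLC38A9 (0.21 ± 0.12), which is on the list of transporters, did not pass. The exposed libraries of RRAGD differed by less than the controls did. Of the 4 genes whose promoters are shown, MCOLN1 rose by 0.86 ± 0.16, CTSA by 0.58 ± 0.08, GAA by 0.57 ± 0.16 (adjusted p = 0.02, a call lost without control replicate 2 or 3 or PM2.5 replicate 1) and LAMP1 by 0.31 ± 0.10 (adjusted p = 0.036, up to 0.111 and lost without any 1 of control replicates 1 and 2, the PM2.5 replicates and lactoferrin replicate 2, and with no filter on low values). Of the regulators, TFE3 rose by 0.40 ± 0.07, MITF fell from 19, 21.0 and 19.8 FPKM to 10.1, 13.3 and 12.8 FPKM (-0.76 ± 0.11), and TFEB stayed low and did not pass (0.22 ± 0.14).

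The vacuolar proton pump acidifies lysosomes. Of its 21 tested subunit genes 10 rose and 0 fell (median 0.42). ATP6V0D2, an isoform of the membrane-stalk subunit, was at 0.2, 0.452 and 0.214 FPKM in control and at 13.7, 11.6 and 10.9 FPKM with PM2.5, while the other isoform, ATP6V0D1, had a mean of 13.9 FPKM in control and 16.8 FPKM with PM2.5 and did not pass (0.22). With PM2.5 the levels of the 2 isoforms were thus of similar order, from a control in which ATP6V0D1 was far above. ATP6V1B2, a subunit of the cytosolic head, rose from 12.5, 12.1 and 11.7 FPKM to 28.2, 28.1 and 28.6 FPKM (1.14 ± 0.07).

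Autophagy genes were split, with 6 of 30 higher, 6 lower and a median of 0.04. SQSTM1, the cargo receptor p62, rose from 26.5, 25.8 and 22.6 FPKM to 106, 89.8 and 90.8 FPKM (1.87 ± 0.10, adjusted p = 4.0e-06), and the membrane marker gene MAP1LC3B rose by 0.70 ± 0.10. In the same family GABARAPL1 fell from 62.4, 58.8 and 48.4 FPKM to 19.1, 20.7 and 21.2 FPKM (-1.50 ± 0.10). Among the other cargo receptors TAX1BP1 fell (-1.28 ± 0.29) and OPTN fell (-0.63 ± 0.17, a call lost without PM2.5 replicate 1 or 2, with an adjusted p of up to 0.0656, and with no filter on low values, at 0.0742), and NBR1 (-0.13) and CALCOCO2 (0.12) did not pass.

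Cholesterol genes did not move as 1 block. Of 29 genes of cholesterol synthesis and uptake 11 rose and 4 fell (median 0.18), and the increases numbered 6 or 7 and the decreases 1 or 2 without control replicate 2 or any PM2.5 replicate. INSIG1, which retains the sterol sensor in the endoplasmic reticulum, was at 20.3, 20.5 and 19.99 FPKM in control and at 125, 121 and 123.3 FPKM with PM2.5 (2.52 ± 0.07, adjusted p = 1.3e-07). The synthesis gene MSMO1 rose by 0.92 ± 0.09.

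Fatty acid synthesis and lipid droplet genes rose in 10 of 23 and fell in 2 (median 0.18), with 1 lower without control replicate 1 or 2 or any PM2.5 replicate and 5 lower without lactoferrin replicate 1. G0S2, an inhibitor of the triglyceride lipase, went from 28.1, 26.2 and 30.04 FPKM to 243, 174 and 176 FPKM, and the gene of that lipase, PNPLA2, fell from 12.9, 12.2 and 10.03 FPKM to 6.66, 5.86 and 7.19 FPKM (-0.83 ± 0.10). The droplet coat gene PLIN2 rose from 44.8, 40.8 and 40.4 FPKM to 97.1, 90.2 and 90.4 FPKM (1.08 ± 0.10). These 3 each parted the groups completely. The acyl-CoA synthetase gene ACSL1 (1.21 ± 0.08) and the fatty acid synthase gene FASN (0.64 ± 0.12) rose as well.

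Of 20 PPAR targets and fatty acid oxidation genes 7 rose and 5 fell, with a median of -0.03; 4 rose without control replicate 2 or PM2.5 replicate 1 or 2, and 3 fell without control replicate 1 or PM2.5 replicate 3. PDK4, which switches off pyruvate dehydrogenase by phosphorylation, rose from 5.49, 5.63 and 5.48 FPKM to 16.6, 16.7 and 15.6 FPKM (1.43 ± 0.08), next to ANGPTL4. The coactivator gene PPARGC1A, a driver of mitochondrial biogenesis, fell from 2.11, 1.99 and 2.34 FPKM to 0.311, 0.656 and 0.611 FPKM (-1.42 ± 0.16), and the mitochondrial carrier gene UCP2 from 123.3, 117 and 104 FPKM to 48.1, 45.0 and 46.3 FPKM (-1.34 ± 0.08). The oxidation enzymes HADHA (-0.03), HADHB (-0.23) and ACADM (-0.27) did not pass.

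Among cytokines, chemokines and myeloid growth factors 8 of 17 tested genes rose and 2 fell (median 0.29), and 9 others, IL1B, CCL2 and CXCL10 among them, were below the filter. CXCL2, a neutrophil chemokine, was at 18.3, 17.0 and 13.1 FPKM in control and at 40.6, 47.2 and 50.7 FPKM with PM2.5 (1.45 ± 0.11, adjusted p = 2.4e-05). IL6 was at 69.8, 69.9 and 78.0 FPKM against 101, 117 and 124 FPKM (0.59 ± 0.10). CXCL8, the most abundant chemokine of the group, was at 175, 179 and 123 FPKM against 248, 216 and 242 FPKM (0.53 ± 0.16, adjusted p = 0.027), a call lost without control replicate 3 or PM2.5 replicate 1 or 3 (up to 0.0889) and with no filter on low values (0.0713). The exposed libraries were above all controls for the 3 genes, by the least for CXCL8. CSF1, the macrophage growth factor, rose by 1.02 ± 0.18, LIF by 0.68 ± 0.10, and IL11 (-0.57 ± 0.09) and CCL28 (-0.97 ± 0.12) fell.

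NF-kB subunits, feedback genes and adhesion targets were mixed, with 9 of 25 higher, 4 lower and a median of 0.04. The receptor-proximal kinase gene IRAK2 rose from 3.77, 3.34 and 3.38 FPKM to 11.6, 12 and 10.8 FPKM (1.54 ± 0.08), and the feedback gene TNFAIP3 by 0.85 ± 0.15. The feedback inhibitor gene NFKBIA did not pass (30.4, 27.7 and 32.3 FPKM against 29.6, 27.9 and 27.8 FPKM; -0.13 ± 0.10), nor did the subunit genes NFKB1 (-0.12) and RELA (0.09). Of the adhesion molecules ICAM1 rose by 0.54 ± 0.14, a call lost without control replicate 1 or PM2.5 replicate 1 or 2 (adjusted p up to 0.061), and VCAM1 fell by 0.58 ± 0.12.

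The interferon response and antigen presentation list held genes that moved in both directions. Of 27 genes 8 rose and 5 fell (median 0.15), with 4 or 5 higher without control replicate 2 or PM2.5 replicate 2 or 3. Induced genes differed among themselves. IFIT3 and IFI44 rose, with log2 changes of 0.43 to 0.68 and 0.32 to 0.67 over the other settings tried. Their calls were lost in 4 and 9 of those settings. The induced genes ISG15 (19.2, 13.9 and 11.8 FPKM against 8.33, 7.11 and 8.03 FPKM; -0.92 ± 0.14) and IFIT1 (-1.03 ± 0.18) and the factor IRF7 (-0.88 ± 0.18) fell. The peptide transporter genes TAP1 (3.89, 4.05 and 3.41 FPKM against 8.14, 7.99 and 8.27 FPKM; 0.97 ± 0.07) and TAP2 (1.02 ± 0.15) and the antigen-presenting gene HLA-E (0.57) rose.

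In prostaglandin metabolism 5 of 17 genes rose and 3 fell (median 0.28). The phospholipase gene PLA2G4A, which frees arachidonic acid, rose by 1.32, the cyclooxygenase gene PTGS1 by 0.71 ± 0.10 and the thromboxane synthase gene TBXAS1 by 1.2 ± 0.10. HPGD, which inactivates prostaglandins, fell from 2.16, 2.30 and 2.05 FPKM to 0.311, 0.473 and 0.472 FPKM (-1.58 ± 0.14). The inducible cyclooxygenase gene PTGS2 was below the filter.

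Proteases and coagulation factors rose in 11 of 25 genes and fell in 5 (median 0.33), with 3 lower without PM2.5 replicate 2 or 3. Beside MMP1 and MMP3, the membrane metalloproteinase gene MMP14 rose from 37.8, 39.5 and 39.3 FPKM to 100, 92.2 and 96.6 FPKM (1.25 ± 0.15). Urokinase, PLAU, went from 32.3, 32.7 and 35.0 FPKM to 102, 97.1 and 103 FPKM (1.53 ± 0.09), and its receptor, PLAUR, rose by 1.17 ± 0.10. The protease inhibitor gene TFPI2 went from 98.5, 90.8 and 99.0 FPKM to 330, 312 and 302 FPKM (1.66 ± 0.10). Thus a protease, its receptor and an inhibitor of proteases were all higher in the exposed libraries. Tissue factor, F3, which starts coagulation, fell from 9.84, 11.1 and 12.5 FPKM to 5.14, 4.92 and 5.47 FPKM (-1.08 ± 0.15).

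Matrix and integrin genes moved in both directions, also within families: 10 of 36 rose and 12 fell (median -0.21). Of the collagens, COL1A1 fell from 6.16, 6.19 and 7.98 FPKM to 1.34, 1.41 and 1.51 FPKM (-1.96 ± 0.14) and the basement membrane chain COL4A1 from 120, 129 and 140 FPKM to 48.0, 52.9 and 53.2 FPKM (-1.38 ± 0.25), while COL6A1 rose (1.17 ± 0.20). The chains of the epidermal-type laminin differed from each other: LAMB3 rose from 9.05, 8.98 and 9.33 FPKM to 31.8, 30.9 and 29.3 FPKM (1.65 ± 0.13) and LAMA3 fell by 0.81. Among the integrins ITGA3 (1.17 ± 0.15) and ITGB5 (0.98 ± 0.09) rose and ITGB6, a subunit that activates TGF-beta, fell (-1.39 ± 0.15). Fibronectin, FN1, was at 1352, 1472 and 1786 FPKM against 1884, 1975 and 1966 FPKM and did not pass (0.30 ± 0.24).

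Junction, cadherin and keratin genes fell in 15 of 28 and rose in 3 (median -0.47). The kidney cadherin gene CDH6 fell from 43.2, 47.8 and 50.6 FPKM to 12.2, 15.6 and 15.5 FPKM (-1.73 ± 0.16), plakoglobin, JUP, from 21.0, 21.0 and 20.1 FPKM to 8.69, 7.89 and 7.38 FPKM (-1.37 ± 0.09), and the tight junction scaffold gene TJP1 by 0.98 ± 0.17. The claudin genes differed, with CLDN2, a pore-forming claudin of the proximal tubule, lower (-0.93 ± 0.13) and CLDN1, a sealing one, higher (105, 120 and 124 FPKM against 218, 211 and 226 FPKM; 0.86 ± 0.14). The keratin gene KRT8 fell by 0.66 and its partner KRT18 did not pass (0.20 ± 0.14). E-cadherin, CDH1, was below the filter.

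Markers of injured tubule cells did not rise together: 4 of 17 rose and 6 fell, with a median of -0.25. HAVCR1, the injury marker KIM-1, was at 166, 183 and 229 FPKM in control and at 83.9, 111 and 104 FPKM with PM2.5 (-1.0 ± 0.17, adjusted p = 0.002). LCN2, the injury marker NGAL, was at 2.25, 2.01 and 2.05 FPKM against 5.15, 5.03 and 4.41 FPKM (1.00 ± 0.10). The 2 markers thus moved in opposite directions. CD24 fell from 446, 432 and 310 FPKM to 76.7, 93.7 and 96.5 FPKM (-2.19 ± 0.13), the developmental factor SOX4 from 65.7, 69.9 and 52.8 FPKM to 16.6, 19.5 and 21.2 FPKM (-1.74 ± 0.13), and osteopontin, SPP1, rose from 626, 603 and 819 FPKM to 1170, 1163 and 1146 FPKM (0.73 ± 0.15).

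Of the 13 proximal tubule markers that could be tested 3 rose and 7 fell (median -0.52). ENPEP fell by 1.17, the vitamin D-degrading enzyme gene CYP24A1 by 1.74 and the bicarbonate transporter gene SLC4A4 by 0.91. PAX8 rose from 52.0, 54.2 and 50.4 FPKM to 85.7, 78.8 and 82.3 FPKM (0.60 ± 0.08). Of the markers of other cells that were above the filter, the immune markers CD14 (-0.52) and CSF1R (0.40) did not pass, LUM (0.54) and DCN (0.48) of fibroblasts rose, COL1A1 of fibroblasts fell, and SCNN1A of the collecting duct fell (-0.44). The DCN call was lost without control replicate 2 or PM2.5 replicate 2 or 3 (up to 0.0705), and that of SCNN1A without control replicate 1 or PM2.5 replicate 2 or 3 (up to 0.0633) or with no filter on low values (0.0574).

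TGF-beta ligands, receptors and targets fell in 13 of 26 genes and rose in 2 (median -0.30), with 1 higher without control replicate 1 or 3, any PM2.5 replicate or lactoferrin replicate 2. TGFB2 was at 61.8, 68.0 and 79.2 FPKM in control and at 9.91, 15.6 and 15.0 FPKM with PM2.5 (-2.39 ± 0.20, adjusted p = 3.2e-05), whereas the ligand gene TGFB1 was at 32.5 to 33.8 FPKM and 31.1 to 35.8 FPKM and did not pass (-0.06 ± 0.10). The receptor genes TGFBR1 (-0.49) and TGFBR2 (-0.87) fell. Among the targets CTGF fell from 110, 113 and 109 FPKM to 34.7, 43.5 and 51.2 FPKM (-1.42 ± 0.13), the feedback inhibitor SMAD7 from 9.07, 8.93 and 8.27 FPKM to 4.45, 4.43 and 4.33 FPKM (-0.96 ± 0.12), and TGFBI (-0.91 ± 0.12), PMEPA1 (-0.77 ± 0.09) and SKIL (-1.0 ± 0.17) fell.

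The ID genes are the classic targets of bone morphogenetic proteins. Of 16 ID and BMP genes 8 fell and 1 rose (median -0.42). ID1 fell from 344, 296 and 217 FPKM to 69.5, 72.8 and 76.5 FPKM (-1.99 ± 0.14), ID2 from 45.6, 40.4 and 34.0 FPKM to 16.4, 17.3 and 16.1 FPKM (-1.28 ± 0.11), and SMAD9 from 2.29, 2.48 and 2.11 FPKM to 0.141, 0.204 and 0.218 FPKM (-2.06 ± 0.13). For all 3 every exposed library lay below the lowest control. The inhibitory SMAD6 fell (-1.08 ± 0.15), the secreted antagonist NOG fell (-0.88 ± 0.21), and the antagonist GREM1 rose from 16.5, 18.3 and 19.5 FPKM to 40.1, 42.8 and 45.8 FPKM (1.18 ± 0.11). The ligand gene BMP2 did not pass (0.03).

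In the insulin-like growth factor axis 6 of 15 genes fell and 1 rose (median -0.28), with 3 lower without PM2.5 replicate 1 or 3. Beside IGFBP3, the receptor gene IGF1R fell by 0.68 ± 0.20 (adjusted p = 0.028, lost without any control replicate or PM2.5 replicate 1 or 3, up to 0.0855, and with no filter on low values, 0.0846), the protease gene PAPPA2 rose by 1.02 ± 0.17, and IRS1 did not pass (0.04 ± 0.19). Of 11 FGF receptors and ligands 0 rose and 2 fell (median 0.06): FGFR2, from 4.86, 5.64 and 5.45 FPKM to 0.340, 0.412 and 0.427 FPKM, and FGFR3 (-1.13 ± 0.16). FGFR1, the most abundant signalling receptor of the family at 17.3 FPKM in control, did not pass (0.07).

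EGFR ligands parted. Of 13 genes 4 rose, 2 without PM2.5 replicate 1, and 3 fell (median 0.02). EREG went from 34.2, 36.7 and 28.8 FPKM to 76.6, 79.4 and 84.8 FPKM (1.2 ± 0.11), TGFA rose by 0.82, HBEGF fell from 17.6, 18.0 and 22.8 FPKM to 9.47, 10.1 and 11.3 FPKM (-0.93 ± 0.16), and AREG, the most abundant, did not pass (0.12). EGFR was lower in all exposed libraries but did not pass (-0.59 ± 0.21, adjusted p = 0.059).

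Genes that report and restrain the ERK kinases rose in 17 of 25 and fell in 3, with a median of 0.75. DUSP6, the ERK phosphatase gene, was at 10.9, 10.2 and 12 FPKM in control and at 50.004, 50.1 and 50.1 FPKM with PM2.5 (2.09 ± 0.09, adjusted p = 1.1e-06). DUSP5, a nuclear ERK phosphatase, went from 46.9, 46.0 and 41.9 FPKM to 153, 137 and 146 FPKM (1.63 ± 0.08). The ETS factor ETV4 went from 2.01, 1.84 and 1.53 FPKM to 8.72, 7.94 and 7.27 FPKM (1.85 ± 0.10). All 3 were several fold above control in each exposed library, and ETV5 (1.64 ± 0.10), SPRY4 (1.31 ± 0.18) and SPRED3 (1.52 ± 0.10) rose too. The phosphatases that fell, DUSP1 (-0.72 ± 0.08), DUSP8 (-0.92 ± 0.18) and DUSP14 (-0.53), were other members of the family, DUSP1 and DUSP8 acting mainly on stress-activated kinases.

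Of 25 AP-1 and early response genes 10 rose and 1 fell (median 0.20). FOSL1, an AP-1 subunit induced by lasting ERK activity, went from 15.5, 16.6 and 23.0 FPKM to 67.4, 64.6 and 62.1 FPKM (1.76 ± 0.16), FOSB from 3.47, 3.62 and 3.08 FPKM to 12.1, 15.1 and 17.1 FPKM (1.91 ± 0.16), and MAFG, a partner of NRF2, from 6.78, 6.95 and 5.74 FPKM to 20.3, 17.7 and 19.5 FPKM (1.45 ± 0.11). The early response genes EGR1 (-0.06 ± 0.11) and MYC (0.07 ± 0.08) overlapped between the groups and did not pass. The decrease was that of JUNB (-0.31 ± 0.08, adjusted p = 0.02), a call lost without control replicate 1 or any PM2.5 replicate (up to 0.0648), with no filter on low values (0.0813) and with no scaling or upper-quartile factors (0.0602 and 0.056).

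YAP and TEAD factors and targets fell in 12 of 25 genes and rose in 1 (median -0.35). The factors TEAD1 (18.5, 22.0 and 19.96 FPKM against 7.81, 10.7 and 10.3 FPKM; -1.09 ± 0.16) and TEAD2 (25.7, 23.9 and 19.97 FPKM against 9.68, 8.58 and 9.80 FPKM; -1.31 ± 0.09) and the coactivator WWTR1 (-0.54 ± 0.09) fell, and YAP1 did not pass (0.08). The target ANKRD1 fell from 62.2, 62.0 and 75.0 FPKM to 24.0, 35.1 and 34.1 FPKM (-1.15 ± 0.18), CRIM1 fell by 0.97 ± 0.15, and CYR61 was lower in all exposed libraries without passing (-0.35 ± 0.15, adjusted p = 0.1). CTGF, TGFB2 and F3 are members of this list as well as of others. The member that rose was NT5E, the ectonucleotidase CD73, from 3.33, 3.6 and 3.71 FPKM to 23.0, 21.3 and 21.6 FPKM (2.43 ± 0.10).

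Notch and clock genes stayed near the background. Of 14 Notch genes 2 rose and 1 fell (median 0.05), with NOTCH2 higher (0.92), the ligand gene JAG1 lower (-0.95) and the targets HES1 (-0.30 ± 0.14) and HEY1 (0.13 ± 0.15) not past the test. There was 1 Notch gene higher without control replicate 2 or 3 or any PM2.5 replicate, and 2 were lower without control replicate 3. Of 17 clock genes 3 rose and 1 fell (median 0.05), with the repressor gene NR1D1 rising from 1.29, 0.873 and 1.44 FPKM to 4.59, 3.26 and 3.65 FPKM (1.31 ± 0.17). The decrease was lost without control replicate 2 or 3 or PM2.5 replicate 1 or 3, 2 clock genes fell without control replicate 1, and 5 rose without lactoferrin replicate 1. In retinoic acid handling 6 of 11 genes rose and 3 fell (median 0.32). Genes for 2 steps on the way to retinoic acid, ALDH1A3 (2.52, 2.58 and 2.85 FPKM against 13.6, 14 and 13.6 FPKM; 2.13 ± 0.08) and RDH10 (1.28), rose, and its carrier CRABP2 went from 49.4, 40.5 and 43.7 FPKM to 5.46, 5.30 and 6.04 FPKM.

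Genes of glycolysis and of the hypoxia response did not share a direction: 9 of 35 rose and 10 fell (6 without control replicate 2 or PM2.5 replicate 3), with a median of -0.14. VEGFA was at 2.78, 2.62 and 3.23 FPKM in control and at 9.35, 9.49 and 10.5 FPKM with PM2.5 (1.56 ± 0.13), the carbonic anhydrase gene CA12 at 3.63, 3.56 and 3.55 FPKM against 14.9, 15.0 and 14.8 FPKM (1.87 ± 0.12), and hexokinase 2, HK2, rose by 1.05 ± 0.10. The hypoxia-inducible genes EGLN3 (-0.71 ± 0.09), BNIP3 (-0.59 ± 0.13) and LDHA (336, 314 and 308 FPKM against 222, 235 and 229 FPKM; -0.53 ± 0.11) fell, CA9 was low and did not pass (-0.33 ± 0.20), and GAPDH (-0.11) and SLC2A1 (0.15) did not pass.

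Nuclear-encoded subunits of respiratory complexes I to IV fell in 12 of 59 and rose in 0 (median -0.30). The count was 2 without control replicate 1 or PM2.5 replicate 3, 4 without PM2.5 replicate 2, 6 without control replicate 2, 19 without lactoferrin replicate 1 and 20 without control replicate 3. NDUFS5, an accessory subunit of complex I, was at 424, 325 and 358 FPKM in control and at 201.6, 200.6 and 200 FPKM with PM2.5 (-0.92 ± 0.17, adjusted p = 0.0029). Over all 37 tested genes of the mitochondrial genome 0 rose and 8 fell (median -0.29). Of the 13 protein-coding genes among them 0 rose and 0 fell (median 0.03). Of these MT-CO1 was at 6432, 7146 and 6715 FPKM in control and at 12337, 8500 and 7734 FPKM with PM2.5 (0.41 ± 0.20, adjusted p = 0.14), highest in PM2.5 replicate 1.

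Genes of G2 and mitosis were lower with PM2.5. To show a feature of some of these promoters, the 100 bases before the RefSeq start (GRCh38.p14) are given for 6 G2 and mitosis genes, with TTTGAA, the core of the cell cycle genes homology region (CHR), and ATTGG, the CCAAT box, in capitals on whichever strand they lie. All 6 hold TTTGAA close to the start, so they are examples and not typical of the list, as the shares below show. The genes are CCNB2 (cyclin B2, chr15:59105046-59105145, plus strand), PLK1 (a mitotic kinase, chr16:23678789-23678888, plus), BUB1B (a spindle checkpoint kinase, chr15:40160969-40161068, plus), KIF11 (a spindle kinesin, chr10:92593030-92593129, plus), HMMR (a spindle protein, chr5:163460532-163460631, plus) and ANLN (anillin of the cleavage furrow, chr7:36389762-36389861, plus).
CCNB2: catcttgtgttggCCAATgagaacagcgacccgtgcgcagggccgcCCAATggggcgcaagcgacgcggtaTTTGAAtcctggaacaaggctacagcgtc
PLK1: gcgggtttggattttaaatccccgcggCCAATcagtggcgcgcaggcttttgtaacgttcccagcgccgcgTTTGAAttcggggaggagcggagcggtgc
BUB1B: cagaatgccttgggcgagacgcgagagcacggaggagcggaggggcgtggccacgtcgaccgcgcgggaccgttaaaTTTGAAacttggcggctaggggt
KIF11: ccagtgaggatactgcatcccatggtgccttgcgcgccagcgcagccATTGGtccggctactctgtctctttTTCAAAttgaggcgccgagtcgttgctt
HMMR: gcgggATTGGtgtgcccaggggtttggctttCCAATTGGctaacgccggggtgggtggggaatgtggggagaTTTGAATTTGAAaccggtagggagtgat
ANLN: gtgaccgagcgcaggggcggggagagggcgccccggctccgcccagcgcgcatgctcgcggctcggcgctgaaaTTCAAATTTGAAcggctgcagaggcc
For contrast, 3 DNA replication genes are given with TTTCCCGC, an E2F site, in capitals and any CCAAT box left unmarked: PCNA (the sliding clamp, chr20:5126623-5126722, minus), TYMS (thymidylate synthase, chr18:657553-657652, plus) and CDT1 (a licensing factor, chr16:88803689-88803788, plus).
PCNA: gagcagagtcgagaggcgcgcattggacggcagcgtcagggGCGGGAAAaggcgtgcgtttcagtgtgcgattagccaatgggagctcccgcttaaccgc
TYMS: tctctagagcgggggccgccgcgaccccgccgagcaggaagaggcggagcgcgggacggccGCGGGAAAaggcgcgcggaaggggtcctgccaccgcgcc
CDT1: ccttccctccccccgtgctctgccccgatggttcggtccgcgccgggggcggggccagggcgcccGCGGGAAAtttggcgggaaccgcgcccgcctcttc
The first base of TTTGAA nearest the start lay 29, 29, 23, 28, 22 and 20 bases before it in the 6 mitotic genes in that order. On either strand of the promoter, TTTGAA was in 24 of 37 G2 and mitosis genes (64.9%), 9.29% of all tested genes and 2.94% of S phase genes, and TTTCCCGC was in 9 of 34 S phase genes (26.5%) against 2.71% of all. The CCAAT box was in 29 of 37 G2 and mitosis genes (78.4%), 17 of 34 S phase genes (50%) and 36.9% of all. Within the last 30 bases, a window chosen after the positions were seen, TTTGAA was in 10 of 37 G2 and mitosis genes (27.0%) and 65 of 10031 tested genes (0.648%).

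Of 44 tested G2 and mitosis genes 35 fell and 0 rose, with a median log2 change of -0.72, and 43 of the 44 changes were negative. CENPF, a kinetochore protein, was at 7.98, 11.3 and 27.8 FPKM in control and at 1.76, 2.22 and 1.89 FPKM with PM2.5 (-2.58 ± 0.40, adjusted p = 0.0012). TOP2A, topoisomerase 2 alpha, was at 40.6, 48.4 and 72.9 FPKM against 11.8, 18.9 and 18.8 FPKM (-1.72 ± 0.28). KIF20A, a kinesin of cytokinesis, was at 15.8, 15.3 and 16.9 FPKM against 6.92, 6.88 and 5.93 FPKM (-1.27 ± 0.10). Control replicate 3 was the highest library for CENPF and TOP2A and near the others for KIF20A; without it 34 genes of the list fell and the median was -0.71. Of the genes whose promoters are shown, HMMR fell by 2.52 ± 0.27, ANLN by 1.55 ± 0.18, KIF11 by 1.46 ± 0.20, CCNB2 by 0.83 ± 0.10 and PLK1 by 0.40 ± 0.09. BUB1B fell by 0.49 ± 0.15 (adjusted p = 0.029), a call lost without control replicate 3 or PM2.5 replicate 1 or 3 (up to 0.0988) and with no filter on low values (0.094).

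The sizes ranged widely within the mitotic genes. The main mitotic kinase CDK1 was at 33.7, 33.3 and 25.9 FPKM in control and at 19.3, 20.5 and 18.6 FPKM with PM2.5 (-0.70 ± 0.11), and CCNB1, cyclin B1, at 55.0, 51.7 and 50.3 FPKM against 47.4, 44.5 and 38.4 FPKM (-0.32 ± 0.11, adjusted p = 0.048, lost without any control replicate or PM2.5 replicate 2 or 3 or lactoferrin replicate 2, up to 0.173, and with no filter, no scaling, upper-quartile factors or no trend and robust options, up to 0.171). CDC20 (-0.29), AURKB (-0.21) and BUB1 (-0.13) did not pass. The 24 members with TTTGAA in the promoter had a median of -1.01, with 21 lower, and the 13 without it a median of -0.41, with 9 lower, a description with no test. GC content moved with these sizes: over the 44 members the Spearman correlation of the log2 change with GC was 0.602 and with length -0.489, and the median GC was 41.6% against 47.9% over all tested genes. A step added after the values were seen left out both control replicate 3 and PM2.5 replicate 1. These are the libraries whose own differences from their group correlated with GC, so the choice itself tends to lower the correlation over all genes. The correlation of the change with GC was then 0.0699 over all genes, against 0.182 with all 6 libraries. Within the 44 mitotic genes it was 0.555, the median of the list was -0.67 and 43 of 44 changes were negative. The part of GC content in these decreases was not tested.

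Of 39 DNA replication and S phase genes 3 rose, 1 without PM2.5 replicate 1, and 7 fell, with a median of -0.03. PCNA was at 196, 174 and 160 FPKM in control and at 164, 158 and 160 FPKM with PM2.5 (-0.18 ± 0.12), MCM2, a part of the replicative helicase, at 41.3, 42.6 and 42.4 FPKM against 48.3, 46.3 and 49.2 FPKM (0.13 ± 0.08), and CDT1 and TYMS likewise did not pass (0.31 ± 0.12 and -0.32 ± 0.12). The thymidine kinase gene TK1 fell from 98.6, 84.8 and 68.9 FPKM to 51.3, 47.2 and 48.0 FPKM (-0.81 ± 0.15). Most replication genes therefore lay within a log2 change of 0.5, unlike the mitotic genes, a difference that was not tested.

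Replication-dependent histone genes fell in 13 of 23 and rose in 0, with a median of -0.84. HIST1H2BD was at 18.2, 14.1 and 14.5 FPKM in control and at 2.71, 3.97 and 2.80 FPKM with PM2.5 (-2.19 ± 0.18), and HIST1H2AC at 16.6, 16 and 10.9 FPKM against 2.64, 3.37 and 3.17 FPKM (-2.1 ± 0.16). The most abundant member, HIST1H2BK, did not pass (-0.08). The tested genes are a minority of the family, most of whose transcripts lack poly(A) tails, and they are near-identical copies whose reads cannot be assigned with certainty. Their median GC content was 56.2%, above that of all tested genes.

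**Figure D5:**
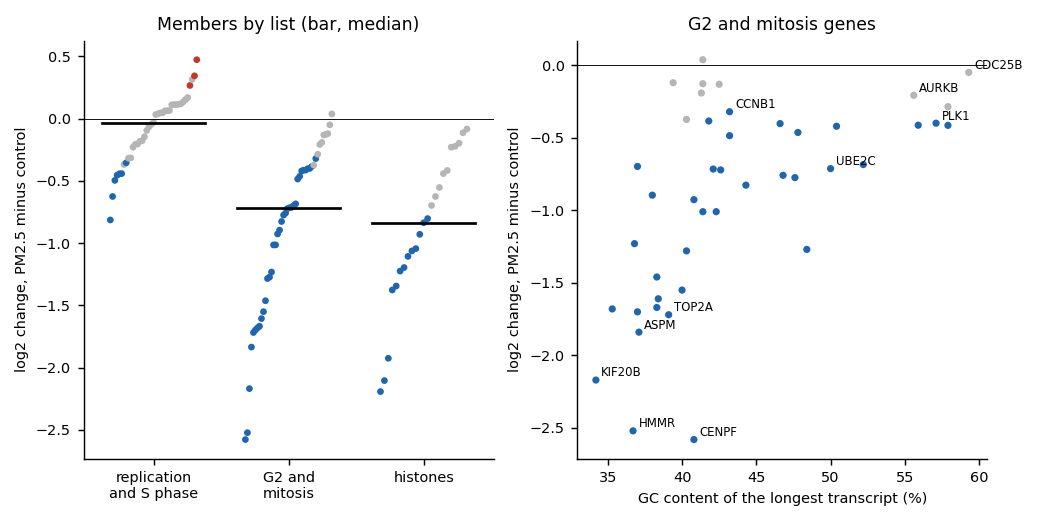
The left panel shows the log2 change of each S phase, G2 and mitosis and histone gene, with the medians (-0.03, -0.72 and -0.84) as bars. The right panel plots the changes of the 44 G2 and mitosis genes against the GC content of the longest transcript, and the largest decreases lie at low GC (Spearman 0.602).

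Of 20 G1 cyclins and cell cycle inhibitors 3 rose and 9 fell (median -0.30). Cyclin D1, CCND1, which drives entry into the cycle, was at 5.27, 6.18 and 5.77 FPKM in control and at 20.3, 23.6 and 25 FPKM with PM2.5 (1.86 ± 0.10), and the inhibitor CDKN1A (p21) at 35.3, 31.6 and 24.1 FPKM against 89.6, 77.2 and 81.5 FPKM (1.40 ± 0.12). The inhibitors CDKN2B (-1.0 ± 0.14), CDKN2C (-1.07) and CDKN1B (-0.70) fell. The death receptor genes FAS (0.63 ± 0.11) and TNFRSF10A (0.84) rose. Of 21 BCL2 family and death genes 4 rose and 2 fell (median 0.04), with PMAIP1, the pro-apoptotic NOXA, at 26.9, 26.5 and 21.8 FPKM against 62.5, 62.9 and 66.7 FPKM (1.29 ± 0.09), BAK1 at 0.69 ± 0.17, and the pro-apoptotic BMF (-0.71 ± 0.11) and BOK (-0.68 ± 0.11) lower.

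Ribosomal protein genes were lower with all libraries included, but the count depended on single libraries. Of 79 cytosolic ribosomal protein genes 20 fell and 1 rose (median -0.42), with 2 lower without control replicate 1 or PM2.5 replicate 2 or 3, 5 without control replicate 2 and 37 without control replicate 3. It was 11 without PM2.5 replicate 1 and 39, 12 and 32 without lactoferrin replicates 1, 2 and 3, and the increase was lost without control replicate 2 or 3, any PM2.5 replicate or lactoferrin replicate 2. RPLP0, of the ribosomal stalk, was at 802, 658 and 354 FPKM in control against 456, 379 and 379 FPKM (-0.55 ± 0.28, adjusted p = 0.16), a gene in which control replicate 3 lay below the exposed libraries. Of 76 mitochondrial ribosomal protein genes 8 rose and 3 fell (median 0.10), and of 34 proteasome subunits 5 rose and 1 fell (median 0.09). The mitochondrial increases numbered 3 to 5 without control replicate 2 or 3 or any PM2.5 replicate and 13 without lactoferrin replicate 1, and the decreases 6 without control replicate 3 and 7 without lactoferrin replicate 1. The proteasome increases numbered 3 without any 1 PM2.5 replicate, and its decrease was lost without any control or PM2.5 replicate or lactoferrin replicate 2. Among 22 nuclear long noncoding RNAs and hosts of small nucleolar RNAs 7 rose and 1 fell (median 0.10). NEAT1, the scaffold of paraspeckles, was at 2.74, 3.06 and 2.5 FPKM in control and at 6.73, 4.6 and 5.53 FPKM with PM2.5 (0.85 ± 0.13), the snoRNA hosts SNHG1 (0.58 ± 0.11), SNHG17 (0.70 ± 0.09) and GAS5 (0.57 ± 0.11) rose, and MALAT1 overlapped between the groups (-0.20 ± 0.19).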

How the data were processed

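The authors deposited 1 table per sample with FPKM values for 58884 Ensembl gene identifiers, made with tools that, per the submitters' processing notes, include Trimmomatic 0.38, the aligner HISAT2 2.1.0, the read counter featureCounts 1.6.0 and DESeq2 1.22.1, on GRCh38. The unit was inferred: multiplied by union exon lengths of GENCODE release 29, between 85.9% and 87.2% of low values in the 6 libraries (at most 200 reads) became whole numbers of a common step (tolerance 0.05). Neither the annotation nor the use of strand is stated (not given in the sources used here), and overlapping, antisense and near-identical genes are uncertain.

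Symbols, positions, length and GC content came from GENCODE release 29 (58611 identifiers matched), and promoters from RefSeq (10031 tested genes matched by symbol). FPKM were divided by trimmed-mean factors (0.930 to 1.03), and log2(FPKM + 0.5) was fitted with limma 3.58.1 in R 4.3.3 with 3 group means over all 9 libraries, with trend and robust options and Benjamini-Hochberg adjustment. Figures used matplotlib 3.10.9. The fit was also run on simulated reads, drawn with the same relative spread for every gene and library. That setting is simpler than these data, and its outcome is not reported here. Alternatives changed the scaling, pseudocount (0.1 or 1), filter and variance estimate, used limma-voom on rebuilt reads, the 6 libraries alone or a replicate block, or left out each library. The main fit did not treat replicate numbers as pairs. Same-numbered control and PM2.5 libraries had deviations from their group means correlated at 0.179, -0.0608 and 0.0616. Differently numbered ones had correlations from -0.179 to 0.136. With 3 libraries a group these deviations are tied to each other, so the values cannot settle whether the samples were paired.

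Members and gene lists were chosen with earlier results of these data known. Genes were named by rule: the 12 largest increases and decreases among the called genes that had a symbol, at least 2 FPKM on average and no overlap between groups; genes at most 0.1 FPKM in one group and at least 1 FPKM in the other; the 3 largest called changes in each direction and the 2 most abundant uncalled genes of each list; and list members whose role the text describes. Not every gene that met a rule is named. Lists share some members. Results for some genes are not reported here.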

Additional observations from a re-analysis of the deposited data

How the results depend on the processing

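The totals of 2670 higher and 2392 lower genes stayed within 1.5 times under every alternative run: 2258 (no filter) to 2991 (no scaling) higher and 1779 (no filter) to 2799 (replicate block) lower, and 1962 to 3084 higher and 1745 to 2763 lower when each library was left out. With the replicate number as a block 2878 genes were higher and 2799 lower, of which 2594 and 2337 were also called without the block. Of 647 called genes that were named or listed, none changed direction in any alternative in which it was tested, and between 2 and 142 lost their call in a given one, most without PM2.5 replicate 2 or 3 (142 each), with no filter (140) and without PM2.5 replicate 1 (129). The count least settled by the data was that of cytosolic ribosomal proteins, where 20 lower genes became 59 under the block, 31 with limma-voom, 6 with upper-quartile factors and 2 with no filter. With 3 libraries a group the median standard error on the log2 scale was 0.20 for genes below 1 FPKM, of which 22.0% were called, and 0.11 for genes from 10 to 100 FPKM, so changes of low genes were measured less precisely.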

Other observations

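Zinc finger genes named ZNF on chromosome 19 had no shared direction, with 23 of 188 higher and 24 lower. There were 13 higher without control replicate 1 or PM2.5 replicate 2 and 15 lower without PM2.5 replicate 1. Most of the decreases lay in 1 stretch of the chromosome, from 20 to 25 Mb, a window chosen after the values were seen. Of 21 tested ZNF genes there 14 fell and 0 rose, with a median log2 change of -0.74, and ZNF708 (2.25 to 0.690 FPKM on average, -1.26), ZNF43 (-1.20) and ZNF91 (-1.11) fell most. Of the 167 outside it 23 rose and 10 fell, with a median of 0.02. The 11 other tested genes inside the window had 3 lower and 0 higher, with a median of -0.15. The median GC content of the ZNF genes was 37.3% inside and 42.9% outside, and over all 188 the log2 change had a Spearman correlation of 0.543 with GC content, whose part in the result was not tested. These genes are similar in sequence, so reads may have been divided between them.

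By class of gene, 2319 of 11606 protein-coding genes rose and 2115 fell, against 214 and 166 of 1408 long noncoding RNA genes and 72 and 76 of 761 pseudogenes.

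Several well-known genes share many exon bases with another gene and were listed at low values. Of the tested genes with coordinates 246 (1.70%) shared over 50% of their exon bases with another gene. The mitotic gene PRC1, with 58.4% shared, was listed at 0.107 to 0.206 FPKM and the complex I gene NDUFV2 (28.4%) at 0.119 to 0.356 FPKM. The low values of ALDOA (53.5% shared), GABARAP (55.7%) and NUSAP1 (62.2%) in the lists above are to be read with the same limit.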
